A study of Mus musculus with 48 samples.

Results

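Genes that regulate or mark the epithelial to mesenchymal transition (EMT) were examined in 48 mouse tumours removed before checkpoint antibody treatment. The set was defined by name as Snai1, Snai2, Twist1, Zeb1, Zeb2, Cdh1, Cdh2, Vim, Epcam and Esrp1. Of these 10 genes, 7 were found by symbol among the 39637 genes of the count table, and Snai2, Twist1 and Epcam are not analysed here. AB1, a mouse mesothelioma line, and Renca, a mouse kidney cancer line, had been grown under the skin of female Balb/c mice aged 8 to 9 weeks, and whole tumours were taken on day 8 (AB1) or day 10 (Renca). Per the labels, all mice then received antibodies to CTLA4 and PDL-1, and each was classed as a responder or non-responder, giving 12 tumours from separate mice in each of 4 groups. Each tumour type is 1 transplanted cell line, and RNA of host cells in the removed tissue was counted with that of the cancer cells. The comparisons ask which of these genes already differed, before treatment, between mice that went on to respond and mice that did not, and how the tumours differ.

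In EMT, cells lose the junctions of an epithelium and take on a motile, mesenchymal form. Transcription factors of the Snail, ZEB and Twist families bind E-box motifs and repress Cdh1, which encodes E-cadherin, the adhesion protein of epithelial junctions. Cells that undergo the change often make N-cadherin (Cdh2) and the intermediate filament protein vimentin (Vim), while Esrp1, an RNA-binding protein, maintains epithelial splicing. The same genes have other uses: Zeb2 is also made by macrophages and other leukocytes, and vimentin by fibroblasts, endothelium and leukocytes. Mesothelial cells and fibroblasts are mesodermal, and N-cadherin is a known product of mesothelial cells.

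RefSeq promoter windows (GRCm38.p6) were at hand for 3 of the 7 genes, Snai1, Vim and Zeb2. The 250 bases before the RefSeq start of Snai1 and of Vim are printed because these genes varied together among AB1 tumours, a result given with the pairs of genes, and because Snail proteins bind E-boxes. The motif searched was CANNTG on both strands, which is its own reverse form, with the Snail and ZEB form CAGGTG or CACCTG within it. Capitals mark the match.
Snai1, chr2:167537945-167538194, plus strand: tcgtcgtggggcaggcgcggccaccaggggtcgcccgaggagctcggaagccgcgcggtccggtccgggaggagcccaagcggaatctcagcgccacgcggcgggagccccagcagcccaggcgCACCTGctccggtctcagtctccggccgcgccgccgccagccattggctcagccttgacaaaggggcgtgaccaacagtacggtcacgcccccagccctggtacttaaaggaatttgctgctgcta
Vim, chr2:13574061-13574310, plus strand: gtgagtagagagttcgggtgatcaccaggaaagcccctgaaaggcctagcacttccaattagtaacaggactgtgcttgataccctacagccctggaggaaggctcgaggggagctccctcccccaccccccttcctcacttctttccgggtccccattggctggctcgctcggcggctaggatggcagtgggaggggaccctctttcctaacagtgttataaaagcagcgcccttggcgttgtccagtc
The Snai1 window held 1 E-box, CACCTG, beginning 126 bases before the annotated start, and the Vim window and each of 4 Zeb2 windows held none. Among all 32851 promoter windows of that length, 66.2% held CANNTG and 17.2% held CAGGTG or CACCTG. A match is a description of these letters and not evidence of a bound site.

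The 7 genes lie on chromosomes 2, 4, 8 and 18 (GRCm38, GENCODE M21). Snai1 is at chr2:167538195-167542814 on the plus strand, Vim at chr2:13573927-13582826 on the plus strand and Zeb2 at chr2:44983632-45117395 on the minus strand. Zeb1 is at chr18:5591860-5775467 on the plus strand and Cdh2 at chr18:16588877-16809246 on the minus strand. Cdh1 is at chr8:106603351-106670246 on the plus strand and Esrp1 at chr4:11331933-11386783 on the minus strand. The RefSeq start of Vim lies inside the span that GENCODE gives the gene, and so does the window printed for it. Counts are of reads over each whole gene, so isoforms could not be told apart. The strand setting of the counting is not given in the sources used here, and the antisense gene Zeb2os shares 653 exon bases, 3.27% of the exons, with Zeb2. For Zeb1 the shared stretch, with Gm10125, was 198 bases or 1.93% of the exons.

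The tumours had between 16.4 and 27.8 M counts in all genes (M, mega). Levels are given as CPM, the counts of a gene in each M counts of the library after TMM scaling, and levels of different genes are compared only as CPM per kilobase of exon. Of 8 renal tubule markers tested between the tumours, 5 were lower in AB1 and 2 higher, where 39.3% of all genes were lower and 42.2% higher. Cdh16, a kidney cadherin, had medians of 0 CPM (responders) and 0.0182 CPM (non-responders) in AB1, against 210 and 278 in Renca. The water channel gene Aqp1, also made by endothelium, had medians of 384 and 497 CPM in AB1 and 131 and 136 in Renca. With Aqp1 in it, the summed level of the 11 listed genes overlapped between AB1 (295 to 873 CPM) and Renca (350.2 to 688). Mesothelial markers did not mark AB1: the sum of 8 such genes had medians of 59.99 and 75.0 CPM in AB1 and 277 and 292 in Renca, mostly Pdpn, which fibroblasts also make. Wt1 was higher in AB1, at medians of 1.43 and 1.37 CPM, Bnc1 and Pdpn were lower, and Upk3b was at 0 in 7 of 12 and 8 of 12 AB1 libraries. In 3 AB1 libraries RNA of skin keratinocyte genes was high. The summed level of 11 skin genes was 987 CPM in non-responder 3, 456 in non-responder 7 and 96.0 in responder 3, against a median of 12.6 among AB1 non-responders and of 5.76 among AB1 responders. AB1 responder 12 also stood apart. Its summed level of 10 pan-leukocyte genes, 2765 CPM, was the lowest of the AB1 responders (median 4690) and below the highest AB1 non-responder (2832), and its sum of 10 fibroblast genes, 4807 CPM, was the highest of the responders (median 2025). Results in which these libraries decide a value are given with and without them where such a fit was run.

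**Figure D1:**
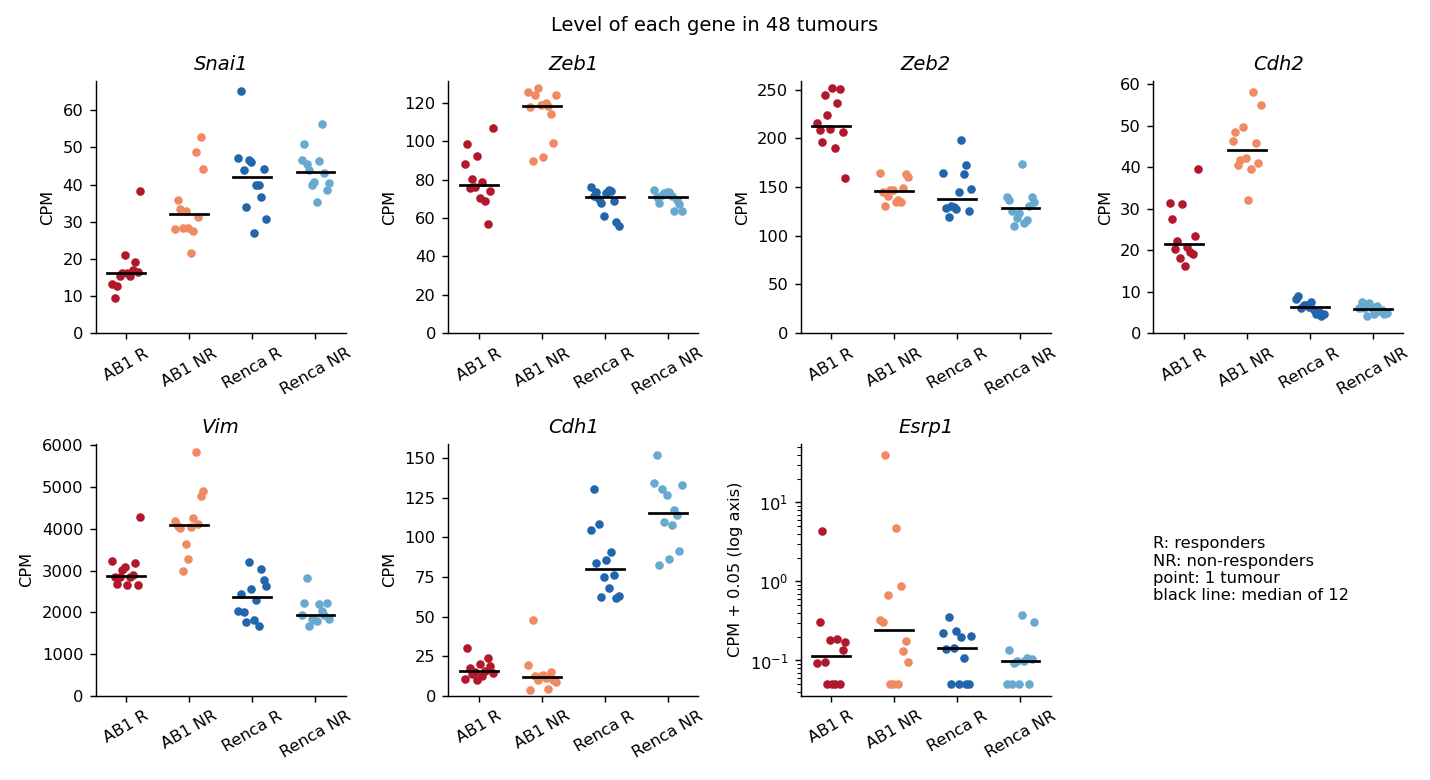
Level of the 7 genes in every tumour in CPM, 1 point a tumour, with the median of the 12 tumours of each group as a line; Esrp1 is shown as CPM + 0.05 on a log axis. Zeb2 stands higher, and Snai1, Zeb1, Cdh2 and Vim lower, in AB1 responders than in AB1 non-responders, while Cdh1 and Cdh2 separate AB1 from Renca.

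Responders to treatment in AB1 had less Snai1 and Zeb1 RNA than non-responders and more Zeb2 RNA, so the ZEB genes, which encode closely related repressors, went in opposite directions. The mesenchymal genes Cdh2 and Vim were also lower in AB1 responders. Of 6 genes that passed the filter on low counts, 1 was called higher and 4 lower in edgeR's quasi-likelihood test with Benjamini-Hochberg adjustment at 0.05. Across all 15859 genes tested in AB1, 60.4% were called, 27.7% higher and 32.7% lower, so that a call alone is common in this comparison. In bulk tumours, fewer cells of a type and less RNA per cell cannot be told apart. The groups of each of the 6 genes overlapped, and 2.74% of all genes had groups that did not.

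Snai1, which encodes Snail, ran from 9.53 to 38.3 CPM in AB1 responders with a median of 16.2, and from 21.6 to 52.8 in AB1 non-responders with a median of 32.0. One responder tumour, number 12, exceeded the non-responder median, and the next highest responder, at 20.9 CPM, was below every non-responder. The means were 17.6 ± 7.17 CPM (responders) and 34.4 ± 9.44 CPM (non-responders; SD, n = 12 each), a log2 fold change of -0.95 ± 0.16 (SE, edgeR adjusted p = 2.38e-05), or 1.93-fold lower. Without responder 12 the log2 fold change was -1.08.

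Zeb1 ran from 56.6 to 106.8 CPM in AB1 responders (median 77.4) and from 89.9 to 127.8 in non-responders (median 119). No responder exceeded the non-responder median, although responders 12, 2 and 6 were above the lowest non-responders, 3 and 7, which are libraries with skin RNA. Responder 12 was also above non-responder 11, at 99.3 CPM, which is not among the libraries with skin RNA. The log2 fold change was -0.46 ± 0.08 (SE, edgeR adjusted p = 5.64e-05), from means of 80.6 ± 13.9 and 114 ± 13.2 CPM (SD).

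Zeb2 had the smallest p of the set in AB1. It ran from 159 to 252 CPM in responders (median 213) and from 131 to 165 in non-responders (median 146). All 12 responders exceeded the non-responder median, and responder 12, at the bottom of its group, alone fell among the non-responders. The log2 fold change was 0.61 ± 0.07 (SE, edgeR adjusted p = 4.03e-07), or 1.53-fold higher. Its antisense neighbour Zeb2os, with means of 7.76 ± 1.41 CPM (AB1 responders) and 4.46 ± 0.835 CPM (AB1 non-responders; SD), was higher too (log2 fold change 0.85 ± 0.11, edgeR adjusted p = 1.37e-06). Without strand information, reads of Zeb2 and Zeb2os in the shared bases could not be assigned.

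Per kilobase, the balance of Zeb1 and Zeb2 RNA differed between the AB1 groups. Lengths were of the merged exons of all isoforms, 19942 bases for Zeb2 and 10266 for Zeb1. Whether a ratio is above 1 depends on these lengths, while the difference between groups does not. In CPM, Zeb2 exceeded Zeb1 in every AB1 tumour. Responders had Zeb2 from 159 and Zeb1 up to 106.8, and non-responders Zeb2 from 131 and Zeb1 up to 127.8. The ratio of Zeb2 to Zeb1 had a median of 1.38 in AB1 responders and was above 1 in 11 of 12 tumours, responder 12 being the exception at 0.766. Among AB1 non-responders the median was 0.65 and no tumour was above 1. Renca lay between, with medians of 1.09 in responders (8 of 12 above 1) and 0.956 in non-responders (3 of 12 above 1).

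**Figure D2:**
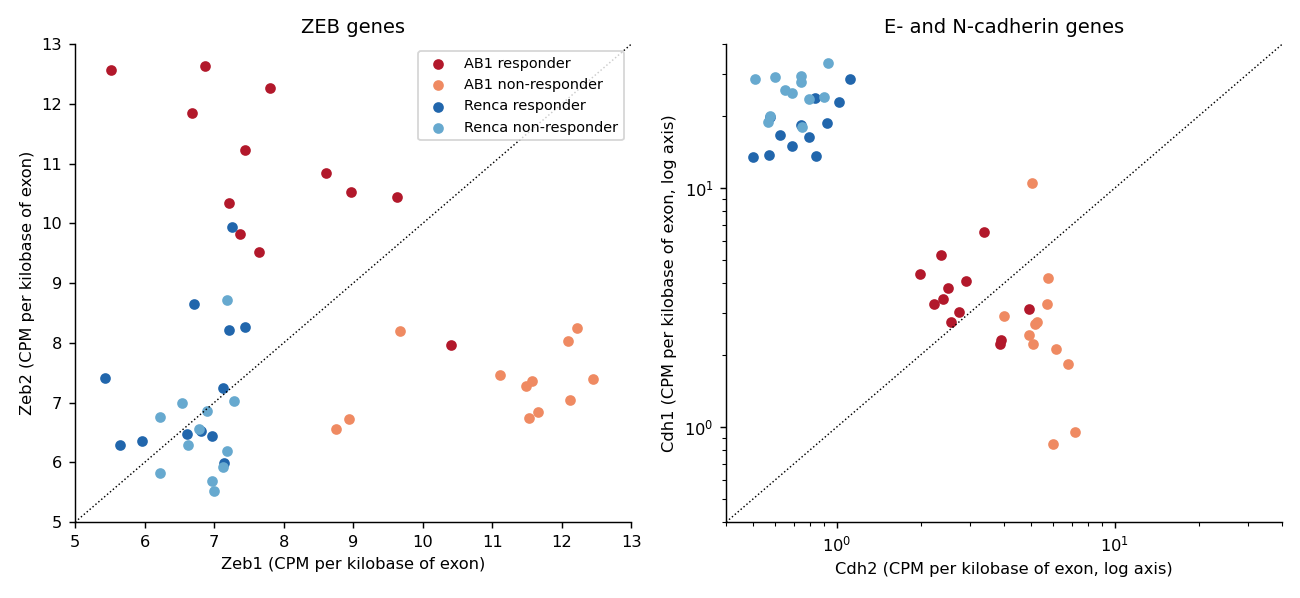
Levels per kilobase of exon of the ZEB genes (left) and of the E-cadherin and N-cadherin genes (right, log axes), 1 point a tumour. The dotted line marks equal levels per kilobase, and the side on which a tumour falls depends on the exon lengths used. Of the AB1 responders 11 of 12 lie above the line for Zeb2 against Zeb1 and no AB1 non-responder does, and all 24 Renca tumours lie far above the line for Cdh1 against Cdh2.

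The N-cadherin gene Cdh2 ran from 16.1 to 39.6 CPM in AB1 responders (median 21.5) and from 32.1 to 58.0 in non-responders (median 44.1). The overlap came from responder 12 and from non-responder 7, 1 of the 3 libraries with skin RNA: the second highest responder was at 31.4 CPM and the second lowest non-responder at 39.6. The log2 fold change was -0.85 ± 0.13 (SE, edgeR adjusted p = 5.23e-06), or 1.81-fold lower in responders.

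Vim was by far the most abundant of the 7 genes, with medians per kilobase of 607 CPM (responders) and 862 CPM (non-responders) in AB1, where Zeb1 and Zeb2 had medians from 7.32 to 11.6. In CPM it ran from 2650 to 4282 in responders (median 2880) and from 2992 to 5834 in non-responders (median 4087). Responders 12, 1, 10, 6 and 5 were above the lowest non-responder, so the groups overlapped, and the log2 fold change was -0.42 ± 0.09 (SE, edgeR adjusted p = 0.000258). Within the first flow cell alone it was -0.31 and was not called (adjusted p = 0.051).

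Cdh1 was low in AB1, and its difference by response turned on the libraries with skin RNA. It ran from 10.2 to 29.996 CPM in responders (median 15.4) and from 3.89 to 47.8 in non-responders (median 11.7), where the highest value was that of non-responder 3, the library with the highest skin sum, and the next was 19.3. With all libraries the log2 fold change was 0.36 ± 0.30 (SE) and was not called (edgeR adjusted p = 0.31). Without non-responders 3 and 7 and responder 3 it was 0.71 ± 0.25 (edgeR adjusted p = 0.0198), higher in responders, and leaving out non-responder 3 alone gave 0.68 (adjusted p = 0.0145). Those 3 libraries were picked out by their skin RNA in these same data. The flow cells also differed: 0.68 in the second (adjusted p = 0.0357) and -0.05 in the first (adjusted p = 0.955), which holds non-responder 3 and responder 3. The other 5 genes kept their direction and call without the 3 libraries, with log2 fold changes of -0.97 for Snai1, -0.50 for Zeb1, 0.60 for Zeb2, -0.88 for Cdh2 and -0.41 for Vim.

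Per kilobase of merged exons (4574 bases for Cdh1 and 8066 for Cdh2), Cdh1 RNA exceeded Cdh2 RNA in 9 of 12 AB1 responders. The median ratio there was 1.41. Which gene is higher depends on these lengths: in CPM the AB1 responder medians were 15.4 for Cdh1 and 21.5 for Cdh2. Per kilobase, Cdh1 exceeded Cdh2 in 1 of 12 AB1 non-responders, non-responder 3, at a ratio of 2.08, and the median there was 0.507.

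Esrp1 was near the limit of detection. It was at 0 in 4 of 12 AB1 responders, 3 of 12 AB1 non-responders, 4 of 12 Renca responders and 4 of 12 Renca non-responders, where a count of 0 allows up to 0.182 CPM at the lowest total. Group medians lay from 0.0486 to 0.191 CPM. The 3 highest values were those of the 3 libraries with skin RNA, at 39.6, 4.66 and 4.29 CPM, and the next highest in AB1 was 0.831. It failed the filter on low counts in all 4 comparisons. Fitted without that filter, its log2 fold change by response in AB1 was -3.21 (edgeR adjusted p = 0.0286), and without these 3 libraries, an alternative chosen after seeing the data, -1.41 (adjusted p = 0.148). With RNA purity ratios as covariates the filter was kept, Esrp1 passed it, and the log2 fold change was -0.17 (edgeR adjusted p = 0.912). That fit kept the 3 libraries, and non-responder 3 had the lowest RNA purity ratios of all libraries.

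**Figure D3:**
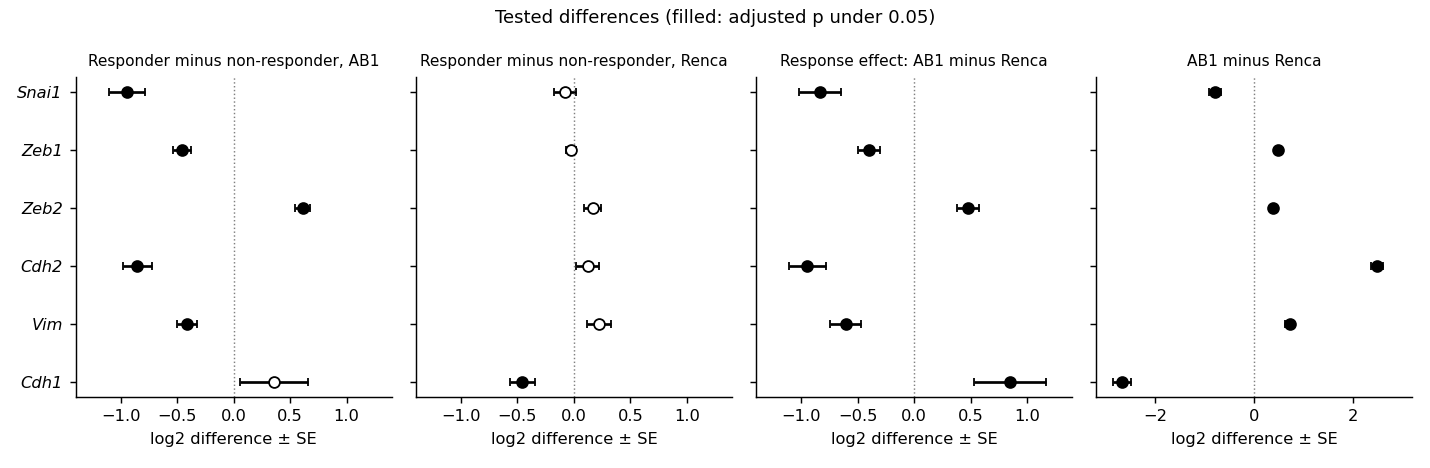
Log2 differences with their SE for the 6 tested genes in the 4 comparisons, filled where the edgeR adjusted p was under 0.05. In the AB1 panel 5 genes are filled, in the Renca panel 1, Cdh1, and in the panels of AB1 against Renca and of the difference of effects all 6.

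In Renca the set moved little with response. Cdh1 alone was called, lower in responders, among 6 genes tested, where 19.6% of all 15778 genes tested were called, 11.1% higher and 8.52% lower. Cdh1 ran from 61.6 to 130.5 CPM in Renca responders (median 80.3) and from 82.3 to 152 in non-responders (median 116). One responder of 12, number 2, exceeded the non-responder median, and the groups overlapped over much of their range, as they did for all 6 genes (0.0127% of all genes had groups that did not overlap). The log2 fold change was -0.46 ± 0.11 (SE, edgeR adjusted p = 0.00738). It was not called with RNA purity ratios as covariates (-0.34, adjusted p = 0.0994), in the first flow cell alone (-0.38, adjusted p = 0.284) or in 1 fit of all 48 libraries (-0.49, adjusted p = 0.157).

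The other 5 genes were not called by response in Renca. Log2 fold changes were -0.08 ± 0.10 for Snai1, -0.02 ± 0.05 for Zeb1, 0.17 ± 0.07 for Zeb2, 0.12 ± 0.10 for Cdh2 and 0.22 ± 0.11 for Vim (SE, edgeR adjusted p from 0.12 to 0.743). Snai1 ran from 26.9 to 65.1 CPM in responders (median 42.0) and from 35.4 to 56.4 in non-responders (median 43.5). Zeb1 covered a narrow range, from 55.7 to 76.4 CPM in responders (median 70.8) and from 63.8 to 74.8 in non-responders (median 71.2). Zeb2 ran from 120 to 198 CPM (median 137) and from 110 to 174 (median 128), and Vim from 1669 to 3198 (median 2371) and from 1678 to 2834 (median 1925). Cdh2 ran from 4.03 to 9.02 CPM (median 6.20) and from 4.11 to 7.52 (median 5.79). The response groups of these genes overlapped over most of their ranges. Zeb2 was called without non-responder 7 (0.21, adjusted p = 0.0393) and Vim without non-responder 3 (0.28, adjusted p = 0.0425).

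The response effect differed between the tumours for 6 genes as fitted, and for 5 of them also without the filter on low counts. In the direct test, the AB1 effect minus the Renca effect was -0.83 ± 0.19 for Snai1 (edgeR adjusted p = 0.000469), -0.40 ± 0.10 for Zeb1 (0.000823), 0.48 ± 0.10 for Zeb2 (0.000157), -0.94 ± 0.17 for Cdh2 (1.65e-05) and -0.60 ± 0.14 for Vim (0.000421). For Cdh1 it was 0.85 ± 0.32 (adjusted p = 0.0287), 1.13 ± 0.26 without the 3 libraries with skin RNA, and 0.78 without the filter, where it was not called (adjusted p = 0.0622). The lists described further on gave, in this test, 13 of 21 mesenchymal markers with the lower effect in AB1 and none with the higher (S100a4 -1.17 ± 0.14), and 8 of 14 other EMT transcription factors with the lower and 2 with the higher (Twist2 -0.73 ± 0.12, Runx1 0.46 ± 0.07). Of all 16920 genes tested, 41.6% were called in this test, 22.9% with the higher effect in AB1 and 18.6% with the lower.

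Between the tumours the cadherins gave the largest differences. AB1 had little Cdh1 and much Cdh2, and Renca the reverse, with no overlap between the 24 AB1 and 24 Renca tumours for either gene. Groups did not overlap for 21.1% of all genes. All 6 tested genes were called, 4 higher and 2 lower in AB1, where 81.4% of 16258 genes were called, 42.2% higher and 39.3% lower, so that a call was common. Cdh1 was 6.38-fold lower in AB1 (log2 difference -2.67 ± 0.18 SE, edgeR adjusted p = 8.34e-19): all AB1 tumours were at or below 47.8 CPM and all Renca tumours at or above 61.6. Cdh2 was 5.57-fold higher in AB1 (2.48 ± 0.12, adjusted p = 3.75e-24), since Renca ran from 4.03 to 9.02 CPM and AB1 from 16.1 upward. Cell line, day of removal and flow cell changed together between the tumours and cannot be told apart.

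In Renca the ratio of Cdh1 to Cdh2 per kilobase had medians of 24.4 (responders) and 35.8 (non-responders), with the lowest Renca tumour at 16.1. Vim (0.71 ± 0.09), Zeb1 (0.48 ± 0.06) and Zeb2 (0.38 ± 0.06) were higher in AB1, and Snai1 was lower (-0.79 ± 0.12; SE, edgeR adjusted p from 2.5e-10 to 2.05e-07 for the 4 genes). The order of the groups differed by gene. For Snai1 the AB1 responders were lowest, then AB1 non-responders, then both Renca groups, which did not differ beyond their spread, and the difference between tumours was -1.24 ± 0.17 among responders and -0.37 ± 0.12 among non-responders. Zeb1 and Vim were highest in AB1 non-responders, next in AB1 responders and lowest in Renca, with differences between tumours of 0.69 and 1.04 among non-responders and 0.24 and 0.37 among responders. Zeb2 was highest in AB1 responders. The other 3 groups lay closer together, with medians of 146, 137 and 128 CPM, and among non-responders AB1 exceeded Renca by 0.16 ± 0.06 (adjusted p = 0.0212).

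RNA of cell type markers moved with response. Of all genes tested, 27.7% were called higher and 32.7% lower in AB1 responders, and 11.1% and 8.52% in Renca responders. In AB1 responders the summed pan-leukocyte level ran from 2765 to 6178 CPM, against 1594 to 2832 in non-responders, and 9 of 9 tested pan-leukocyte genes and 9 of 11 macrophage and monocyte genes were called higher. The fibroblast sum ran from 1580 to 4807 CPM in responders and from 3173 to 5529 in non-responders, with 7 of 10 genes called lower and 1 higher. Blood endothelium sums overlapped almost entirely, 568 to 891 against 599 to 899 CPM. In Renca the pan-leukocyte sum ran from 1998 to 3152 CPM in responders and from 1491 to 2458 in non-responders, with 9 of 9 genes called higher by a median log2 of 0.39, against 1.17 in AB1. Fibroblast sums there ran from 3531 to 6574 and from 3449 to 5612 CPM, and 1 of 10 genes, Pdpn, was called, lower. Of the leukocyte, macrophage and fibroblast markers in the table, Evi2b alone was at or near 0 throughout, and the part of cell makeup in the gene differences was not tested.

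Among tumours of 1 response group and flow cell, the same genes varied with these sums. Deviations of log2 levels from the mean of the group and flow cell were correlated over 24 tumours, in 48 relations of 6 genes, 4 marker sums and 2 tumours chosen after values had been seen. All points share the library scaling. In AB1, Cdh2 deviated against the pan-leukocyte sum (r = -0.846, rho = -0.777, permutation p = 1e-05, the smallest that the resamples allow, adjusted 0.00024; r = -0.745 without the 2 libraries farthest from the median). Zeb1 did so as well (r = -0.697, rho = -0.606, adjusted permutation p = 0.00521), while Zeb2 went with it (r = 0.667, rho = 0.581, adjusted permutation p = 0.0178; r = 0.455 without the 2 farthest libraries). Vim gave r = -0.616 (adjusted permutation p = 0.0298) and rho = -0.423, which did not pass (adjusted permutation p = 0.154). Its r fell to -0.271 without 2 libraries and so rests on them.

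In Renca, Cdh1 varied against the macrophage and monocyte sum more closely than any other gene of the set with any sum (r = -0.907, rho = -0.858, permutation p = 1e-05, adjusted 0.00024; r = -0.871 without 2 libraries). Against the pan-leukocyte sum it gave r = -0.73 and rho = -0.611 (adjusted permutation p = 0.0018). Renca Vim rose with the pan-leukocyte sum (r = 0.607, rho = 0.611, adjusted permutation p = 0.0238). Cdh2, scarce in Renca, followed the fibroblast sum (r = 0.805, rho = 0.712, adjusted permutation p = 0.0016; r = 0.669 without 2 libraries) and the blood endothelium sum (r = 0.752, rho = 0.62, adjusted permutation p = 0.00456). Snai1 passed by r for 1 of its 8 relations, with the AB1 fibroblast sum (r = 0.656, adjusted permutation p = 0.0436). By rho this relation did not pass (rho = 0.402, adjusted permutation p = 0.175), and its r fell to 0.339 without 2 libraries.

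**Figure D4:**
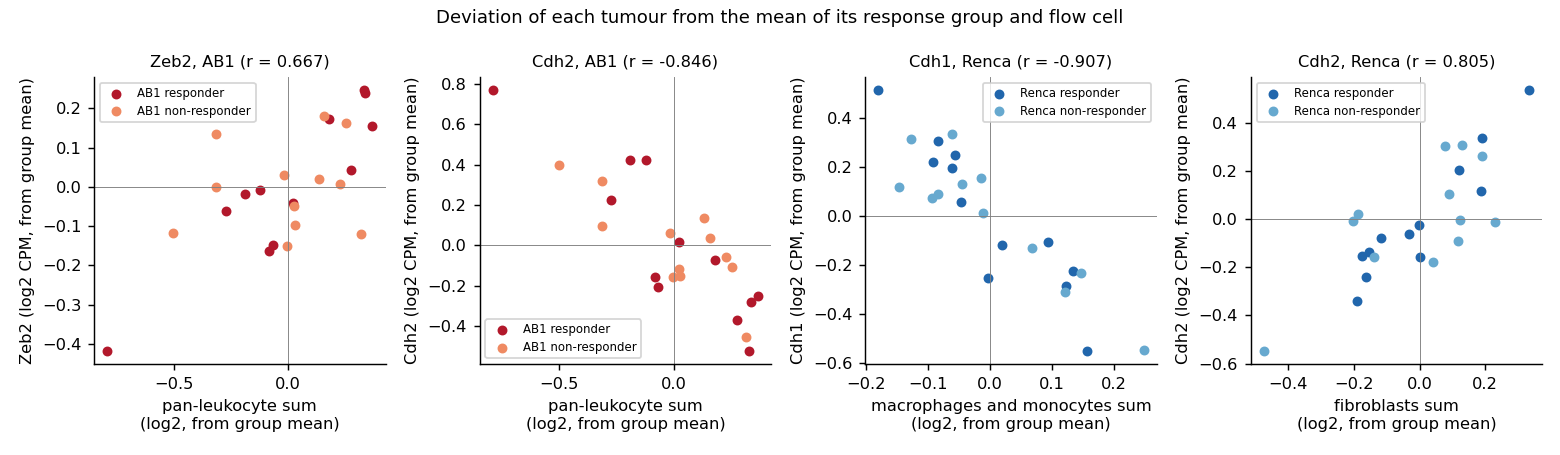
Deviation of each tumour from the mean of its response group and flow cell, in log2 units, for a gene (vertical) against a summed marker level (horizontal), 24 tumours a panel. Zeb2 rises and Cdh2 falls with the pan-leukocyte sum in AB1, where the tumour at the far left is AB1 responder 12; Cdh1 falls with the macrophage and monocyte sum, and Cdh2 rises with the fibroblast sum, in Renca.

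Pairs of the 6 genes were compared in the same way, 15 pairs in each tumour. In AB1, 3 of 15 pairs passed in the test of r. Zeb1 varied with Cdh2 (r = 0.786, rho = 0.774, adjusted permutation p = 0.0015; r = 0.719 without 2 libraries). Snai1 varied with Vim (r = 0.74, rho = 0.696, adjusted permutation p = 0.0121; r = 0.635), the genes whose promoter windows are printed above. Cdh2 varied with Vim by r (r = 0.607, adjusted permutation p = 0.0338, and r = 0.476 without 2 libraries). By rho this pair did not pass (rho = 0.506, adjusted permutation p = 0.0752). Zeb1 against Zeb2 gave r = -0.404 (rho = -0.205, adjusted permutation p = 0.243) with all AB1 libraries and r = -0.757 (adjusted permutation p = 0.0238) without the 3 with skin RNA, but r = 0.0241 without the 2 libraries farthest from the median of Zeb1, so no relation is read from this pair. No pair passed in Renca, where Cdh1 and Vim came closest (r = -0.574, rho = -0.532, adjusted permutation p = 0.0694).

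The genes whose deviations were most like those of each member, among 10781 genes in AB1 and 10949 in Renca (mean log2 CPM not below 1), are given by name and by Pearson r over 24 tumours. In AB1, Zeb1 was most like Sh3gl3 (0.96), Ttc8 (0.926) and Faxc (0.918), and Cdh2 most like Eps8 (0.954), Dlg5 (0.937) and Ift88 (0.917). Vim was most like Baiap2 (0.907), Slc9a5 (0.886) and Trim47 (0.881), and Snai1 most like Clip1 (0.874), Fam129b (0.866) and Mex3d (0.855). Zeb2 was most like Stk4 (0.842), Gnpda1 (0.832) and Herc3 (0.829), and Cdh1 most like Sytl1 (0.852), Vdr (0.833) and Klrb1b (0.814). The names in Renca were others throughout. Vim was most like Lmna (0.97), Tppp3 (0.965) and Gas2l1 (0.926), Cdh1 most like Col4a4 (0.918), Klhl30 (0.914) and Ptprg (0.907), and Zeb1 most like Zfp532 (0.912) and Ank3 (0.865). Zeb2 was most like Ints6l (0.889), Gpr155 (0.862) and Zfp280c (0.82), Cdh2 most like Clip3 (0.885), Cacna1g (0.865) and Cul7 (0.858), and Snai1 most like Sdsl (0.745), Eif2b2 (0.734) and Runx3 (0.72).

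Other genes of the process were taken from lists of transcription factors, mesenchymal markers, ligands and receptors, and 3 kinds of epithelial gene. Of 14 other EMT transcription factors tested in AB1, 11 were lower in responders and 2 higher, where 32.7% of all genes were lower and 27.7% higher. The median log2 fold change was -0.54, against -0.04 over all genes. Twist2, of the Twist family, had medians of 10.99 CPM (responders) and 19.6 CPM (non-responders), and the highest responder, at 17.1 CPM, was below the lowest non-responder, at 18.1 (log2 fold change -0.83 ± 0.10, edgeR adjusted p = 9.78e-07). Prrx1, a homeobox factor of mesenchyme, was lower by -0.52 ± 0.08 (adjusted p = 1.3e-05). Klf8 was higher (0.80 ± 0.12, adjusted p = 5.63e-06). In Renca, where 8.52% of all genes were lower and 11.1% higher, 1 of 13 fell and 2 rose. Klf8 was again higher (0.36 ± 0.09, edgeR adjusted p = 0.00861), beside Sox4 (0.24 ± 0.07) and, lower, Tead1 (-0.16 ± 0.04).

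Of 21 mesenchymal markers tested in AB1, 15 were lower in responders and none was higher (median -0.71). Among all genes tested in AB1, 32.7% were lower and 27.7% higher. S100a4, a calcium-binding protein of motile cells, had medians of 123 and 309.7 CPM in the AB1 response groups and differed by -1.16 ± 0.13 (edgeR adjusted p = 5.35e-07). Mmp2, a matrix metalloproteinase, was at medians of 421 and 785 CPM (-0.83 ± 0.11, adjusted p = 1.78e-06), and the collagen receptor Ddr2 fell by 0.71 on the log2 scale. Many of these genes are also made by fibroblasts, although none is in the fibroblast list, whose sum was lower in the same tumours; the part of this in the result was not tested. In Renca 3 of 21 were lower, Tagln (-0.47 ± 0.10), Ccn2 (-0.46 ± 0.13) and Ddr2 (-0.18 ± 0.05), and none was higher (median 0.09). Among all genes tested in Renca, 8.52% were lower and 11.1% higher.

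Among 18 ligands, receptors and signal carriers tested in AB1, 3 were higher in responders and 7 lower, a share near the 60.4% called of all genes. Tgfb1, a classical inducer of EMT that leukocytes also make, was higher (medians 99.6 and 63.4 CPM; 0.60 ± 0.07, edgeR adjusted p = 8.92e-07), as was Notch1 (0.70 ± 0.11), and Fgfr1 was lower (-0.43 ± 0.06). In Renca, where 19.6% of all genes were called, Hgf was the 1 gene called, higher in responders (0.49 ± 0.11, edgeR adjusted p = 0.00567). It encodes hepatocyte growth factor and had medians of 6.75 and 4.94 CPM.

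The epithelial lists in AB1 depended on the 3 libraries with skin RNA. With all libraries, 32.7% of all genes tested were lower in AB1 responders and 27.7% higher. Of 14 junction and keratin genes tested, 6 were lower and none higher (median -0.26). The 6 included the desmosomal gene Pkp2 (-1.44 ± 0.21, edgeR adjusted p = 4.21e-06) and the keratin gene Krt7 (-1.24 ± 0.25). Without the 3 libraries with skin RNA, an alternative chosen after seeing the data, 4 of 14 were higher and 5 lower (median -0.11). The shares over all genes in that fit are not given here. The 4 higher genes, named after their values were seen, encode the desmosomal proteins Dsc2 (3.12 ± 0.46), Dsg2 (2.66 ± 0.38) and Pkp3 (1.60 ± 0.20) and the tight junction protein occludin, Ocln (1.85 ± 0.26). Dsc2, Dsg2 and Ocln were low throughout, with medians of 1.62, 1.22 and 0.725 CPM among all AB1 responders and of 0.154, 0.207 and 0.219 CPM among all AB1 non-responders. These 3 genes may have passed the filter on low counts through the responders alone, which was not tested. The count of higher genes is therefore not read as a result about the list. Pkp2 (-1.29 ± 0.20) and Krt7 (-1.32 ± 0.27) were still lower. Of the epithelial membrane and secretory genes, 3 of 12 were higher and 3 lower with all libraries (median -0.71), near the shares of all genes. Without the 3 libraries, 6 of 11 were higher and 2 lower (median 0.78). Cd24a was higher in both fits (0.79 ± 0.19 and 0.99 ± 0.17), and Prss8, a membrane protease, lower in both (-2.26 ± 0.51 and -2.01 ± 0.42). Of 3 epithelial regulators tested, 2 were lower with all libraries, among them Trp63, a factor of skin epithelium (-1.14 ± 0.39). Without the 3, Trp63 was lower (-0.58 ± 0.20) and Esrp2, the partner of Esrp1 in epithelial splicing, was higher (0.38 ± 0.15, adjusted p = 0.0301).

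**Figure D5:**
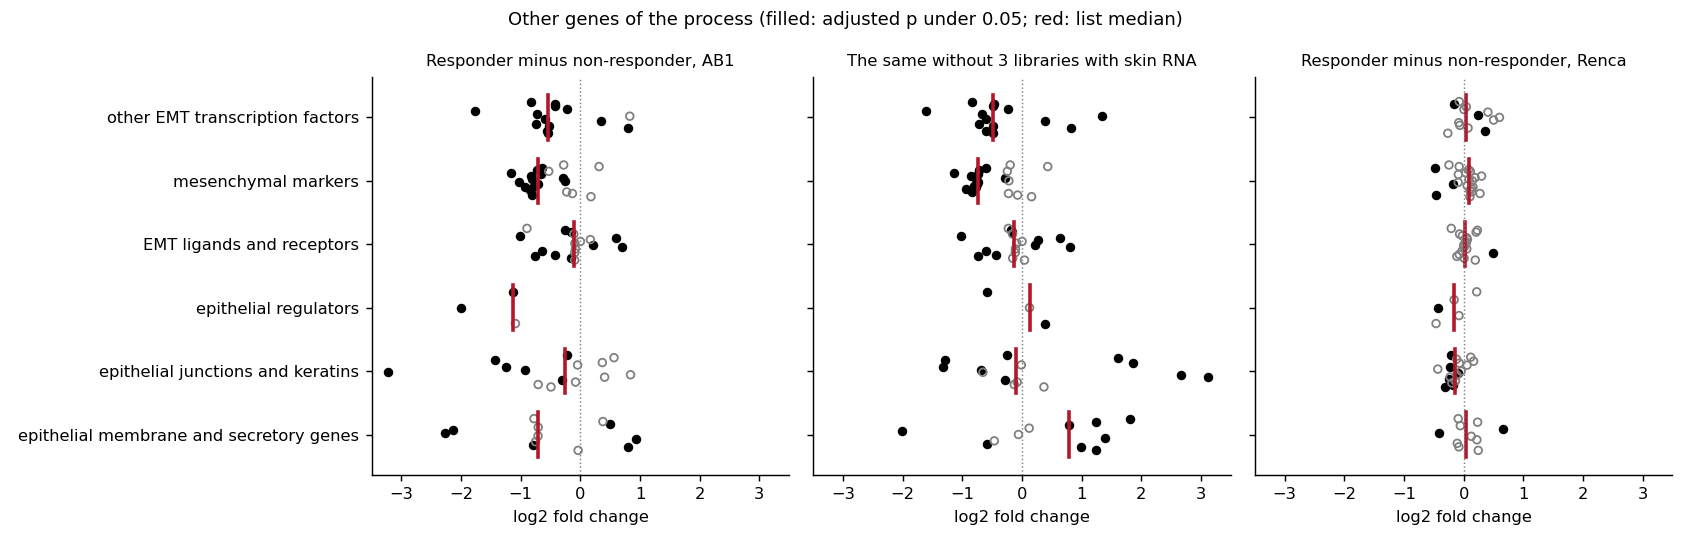
Log2 fold change of responders against non-responders for the genes of 6 lists in AB1 with all libraries, in AB1 without the 3 libraries with skin RNA, and in Renca; filled points had an edgeR adjusted p under 0.05 and red bars mark list medians. Transcription factors and mesenchymal markers have medians left of 0 in both AB1 panels, while the epithelial membrane list moves from a median of -0.71 to 0.78.

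In Renca, 8.52% of all genes tested were lower in responders and 11.1% higher. Of 17 junction and keratin genes, 6 were lower and none was higher (median -0.14). They included Jup (-0.23 ± 0.06), which encodes plakoglobin, a cadherin-binding protein, Tjp1 (-0.20 ± 0.05), a tight junction scaffold, and Cdh3 (-0.30 ± 0.09), which encodes P-cadherin, all with edgeR adjusted p of 0.0164 or below. Cdh1, described above, was lower in the same tumours. Of 5 epithelial regulators tested there, Esrp2 was the 1 gene called (medians 3.199 and 4.36 CPM; -0.43 ± 0.13, adjusted p = 0.0206). Of 10 epithelial membrane and secretory genes, Spint1 was higher (0.67 ± 0.20) and Myo5b lower (-0.41 ± 0.10). Renal tubule markers moved with these genes: 4 of 8 tested were lower in Renca responders, Cdh16 by -0.38 ± 0.07 and Pax2 by -0.24 ± 0.06, with sums of 350.2 to 549 CPM in responders and 455 to 688 in non-responders, while 9 of 9 pan-leukocyte genes were higher. The part of these shifts in the Cdh1 difference was not tested. The number of genes called in Renca depended strongly on the fit, as given below, and these list counts were not repeated in the alternatives.

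Between tumours, where 81.4% of all genes were called, 12 of 18 junction and keratin genes were lower in AB1 and 4 higher (median log2 difference -2.30, against 0.03 over all genes). Claudin gene Cldn3 had medians of 63.4 and 55.7 CPM in Renca non-responders and responders and 0.0214 and 0 in AB1, and Cldn7 (-3.28 ± 0.14) and Muc1 (-1.41 ± 0.06) were lower too. Of 5 epithelial regulators 3 were lower in AB1 and 1, Trp63, higher (2.49 ± 0.30). Trp63 is a factor of skin epithelium, and this fit kept the 3 AB1 libraries with skin RNA. Of 6 skin epithelium genes tested, 4 were called higher in AB1 and none lower. Yet the skin sum had medians of 5.76 and 12.6 CPM in AB1 responders and non-responders, and 14.4 and 15.9 in Renca. The lists were not refitted between tumours without the 3 libraries. Elf3, an epithelial ETS factor, had medians near 5 CPM in Renca (5.08 and 4.86) and of at most 0.042 in AB1. In all 12 of 14 EMT transcription factors were called, 10 higher in AB1 and 2 lower. Foxc2 (5.20 ± 0.16) and Foxc1 (4.33 ± 0.15), developmental factors of mesoderm, were among those of smallest p. Mesenchymal markers were divided, 7 of 21 higher in AB1 and 9 lower: Ccn2 was higher (3.88 ± 0.16), and Cdh11, a mesenchymal cadherin, and Nes, which encodes the filament protein nestin, were lower (-2.36 ± 0.09 and -2.01 ± 0.11). Ligands and receptors were 9 higher and 6 lower of 18, with Hgf (2.92 ± 0.09), Fgf2 (2.49 ± 0.11) and Tgfbr3 (2.51 ± 0.11) higher in AB1, and epithelial membrane genes 6 higher and 4 lower of 11, with Spint2 lower (-3.11 ± 0.11).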

How the data were processed

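RNA of 48 tumours was sequenced, 12 in each of 4 groups given by the labels. The authors' table gives the deposited counts as whole reads for each gene, without normalisation. Demultiplexing with bcl2fastq 2.18.0.12, HISAT2 2.0.4 as well as StringTie 1.3.0 appear in the submitters' processing notes, with the human builds GRCh37 and hg19, while the identifiers are mouse. No counting tool, mouse build or strand setting is given in the sources used here. Of 39637 identifiers, 39461 matched GENCODE M21 (GRCm38), the source of coordinates and exon lengths. Totals over the genes in the table were from 16.4 to 27.8 M. Limits from 0 counts (3 counts) cover counting error only.

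Tests used edgeR 4.0.16 in R 4.3.3 (TMM, filterByExpr, quasi-likelihood F test, Benjamini-Hochberg adjustment over all tested genes, called at 0.05). Each tumour was fitted alone with flow cell as a term, AB1 and Renca with response as a term, and the difference of response effects over all libraries with flow cell. The SE is the size of the log2 fold change divided by the square root of F. The fits were tested on simulated data. Correlations used log2 CPM (prior count 2) and two-sided permutation tests with 100000 resamples within response group and flow cell, adjusted over 30 pairs or 48 relations. Alternatives were RLE scaling, no filter, DESeq2 1.42.0, RNA purity ratios, single flow cells, a joint fit, a replicate block and leaving out libraries. The 3 libraries with skin RNA were picked out from these data, and list counts without libraries were added after seeing the data.

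The genes, lists and tests were chosen with earlier results of these data known. Named are all members, the 3 called genes of smallest p per list and comparison, and the 3 genes most like each member by r, leaving out Gm and Rik symbols and receptor segments; not all are printed, and a few results are not reported here. Lists of mammary epithelium, skeletal muscle, fat, skin epithelium, mesothelium and T cells also served as markers. Their median log2 fold changes by response were 0.12, -0.59, -0.98, -2.57, -0.10 and 1.86 in AB1 and -0.15, 0.75, 0.58, -0.59, 0.06 and 0.83 in Renca. In the same order, these medians are over 2, 11, 8, 4, 2 and 10 tested genes in AB1 and 1, 11, 8, 5, 3 and 10 in Renca. Without the 3 libraries with skin RNA the AB1 medians were -0.56 for skin epithelium and 0.21 for mesothelium.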

Additional observations from a re-analysis of the deposited data

Results flagged for a closer look

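For 6 genes the response effect differed between the tumours in the direct test over 48 libraries (edgeR). The AB1 effect minus the Renca effect on the log2 scale was -0.83 for Snai1, -0.40 for Zeb1, 0.48 for Zeb2, 0.85 for Cdh1, -0.94 for Cdh2 and -0.60 for Vim. Without the filter on low counts the difference of Cdh1 was 0.78 and was not called (adjusted p = 0.0622). Snai1, Zeb1, Zeb2, Cdh2 and Vim were called by response in AB1 and not in Renca. Cdh1 was called, lower in responders, in Renca and not in AB1. The fitted effects of Cdh1, Cdh2 and Vim had opposite signs in the tumours, and those of Snai1, Zeb1 and Zeb2 the same sign. Line, day of removal and flow cell changed with the tumour and cannot be told apart.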

How the results depend on the processing

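The 5 calls of members by response in AB1, the 6 calls between tumours and the calls of difference for genes other than Cdh1 held in the alternatives run, except Vim in the first AB1 flow cell (-0.31, adjusted p = 0.051). Cdh1 in AB1 was -0.049 in the first flow cell, 0.68 in the second, 0.71 without the 3 libraries with skin RNA and 0.68 without non-responder 3. Cdh1 in Renca was not called with RNA purity ratios (-0.34), in the first flow cell (-0.38) or in 1 fit of 48 libraries (-0.49), and its difference between tumours was not called without the filter on low counts (0.78, adjusted p = 0.0622). Uncalled values near 0 changed sign in Renca: Snai1 was 0.082 in the first flow cell, and Zeb1 was 0.0017 with RNA purity ratios and 0.00032 without responder 6. The cause of these changes was not tested.

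Called genes in AB1 numbered 9577, 5816 in the first flow cell alone (fewer samples) and 9069 to 9998 leaving out 1 library at a time. In Renca they numbered 3095, and 204 with RNA purity ratios, 1253 in the second flow cell, 1040 in 1 fit of 48 libraries, and 2304 to 3954 leaving out 1 library. In the first Renca flow cell edgeR called 0 genes, with 2803 at an unadjusted p under 0.05. Leaving out 1 library moved Cdh1 in AB1 between 0.26 and 0.68, and in Renca Zeb2 between 0.14 and 0.21, Vim between 0.18 and 0.28 and Zeb1 between -0.036 and 0.00032. With the replicate number as a block, 9714 genes were called in AB1, 2721 in Renca, 14238 between tumours and 7112 for the difference, and no call of the 6 tested members changed. Esrp1, which is given above without the filter, was tested there and called in AB1 (-2.43, edgeR adjusted p = 0.0128), between tumours (2.44) and for the difference (-3.01). Its 3 highest values, 39.6, 4.66 and 4.29 CPM, were those of the libraries with skin RNA, which this fit kept. Group medians of Esrp1 were 0.0653 and 0.191 CPM in AB1 responders and non-responders, and 0.0921 and 0.0486 in Renca. The labels give 8 of 12 numbers in each tumour a sequencing lane of their own and put the other 4 in 1 lane. Same-numbered libraries deviated with r from -0.159 to 0.529 in AB1 (3 of 12 over 0.1) and from -0.204 to 0.244 in Renca (5 of 12), so the block is not read as a pairing.

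Without the filter, 2839 of 6908 called differences between tumours had the higher effect in AB1, against 3877 of 7032. Scaling moved the median of all genes by under 0.1 on the log2 scale. Depth limits Esrp1, with medians of 1 to 4.5 counts a group.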
